A study of Mus musculus with 2 samples.

Results

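The genes described here are the complement components and receptors that myeloid cells of the mouse brain transcribe: C1qa, C1qb, C1qc, C3, C4b, C3ar1, C5ar1 and Cfp. They were found by symbol in the feature table, all 8 among 55357 listed genes, and each had at least 1 UMI (unique molecular identifier, the tag that marks 1 captured RNA molecule) in both libraries. CD45+CD11b+ cells were sorted from cortical tissue of mice aged 8 weeks, and the study sequenced 1 single-cell library per genotype by the 10x Genomics 3′ method. The first group was Msn knockout mice on C57BL/6, which lack moesin, a protein that ties the cell membrane to the actin cortex. The other was wild-type mice, whose strain the sources used here leave unstated. Each library pools tissue from 5 to 6 animals, so genotype and library cannot be told apart. With 1 library per genotype, differences are given by size, without replicates or p-values. The sources also leave unstated the deleted part of Msn, the cells that lacked it and the sex of the mice. Microglia of both libraries carried Y-linked RNA without Xist, in 69.7% of knockout and 85.6% of wild-type cells. Nearly all others had neither (30.1% and 14.2%), and Xist stood at 0.202 and 0.204 CPM. These RNAs thus show no difference in sex between the pools, which matters for Cfp because it lies on the X chromosome.

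Complement is a cascade of plasma proteins that tags targets for uptake. C1q, the recognition molecule of the classical pathway, is assembled from the A, B and C chains that C1qa, C1qb and C1qc encode, and in the brain microglia are its main source. C4 and then C3 are cleaved downstream of C1q, and C3 fragments left on a surface, synapses among them, are bound by the receptor CR3 of microglia. The small fragments C3a and C5a act on the receptors encoded by C3ar1 and C5ar1, while properdin, encoded by Cfp, stabilises the C3 convertase of the alternative pathway.

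The 3 C1q genes lie side by side on the minus strand of chromosome 4, within 20153 bases of GRCm39 (GENCODE M39). C1qb spans 136606009 to 136613511, C1qc 136616466 to 136620376 and C1qa 136623223 to 136626161. Of the other genes, C3 lies at 57510964 to 57535155 of chromosome 17, C3ar1 at 122823393 to 122833122 of chromosome 6, C5ar1 at 15980668 to 15993465 of chromosome 7 and Cfp at 20791688 to 20797794 of chromosome X. Because the chains were high and low together across classes, the bases before the start of C1qb and C1qc are shown, as RefSeq lists them for GRCm38.p6 and as found once each on chromosome 4 of GRCm39. Of the 8 genes, 6 had an entry in that promoter list, and C1qa had none. Capitals mark GAGGAA, a core of sites bound by PU.1, the factor of the myeloid lineage, and TGCTGA, a core of elements bound by Maf factors. Both strands were searched, in the 250 bases before the RefSeq start. C1qb stands at chr4:136613512-136613761 and C1qc at chr4:136620377-136620475, both on the minus strand and both outside the GENCODE genes. Of the C1qc window, the 151 bases next to the RefSeq start lie in the GENCODE gene and are not printed. The 99 bases shown are the rest of that window, so its printed end is not the RefSeq start.
C1qb: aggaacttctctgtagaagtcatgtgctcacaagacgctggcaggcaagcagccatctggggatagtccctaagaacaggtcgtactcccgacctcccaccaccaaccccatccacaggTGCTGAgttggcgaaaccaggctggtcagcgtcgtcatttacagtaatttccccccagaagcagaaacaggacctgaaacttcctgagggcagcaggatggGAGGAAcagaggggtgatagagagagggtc
C1qc: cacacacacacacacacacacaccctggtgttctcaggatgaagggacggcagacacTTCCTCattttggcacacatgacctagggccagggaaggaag
GAGGAA began 30 bases before the C1qb start and, on the opposite strand and so written TTCCTC, 193 bases before the RefSeq start of C1qc. TGCTGA began 131 bases before the C1qb start and was not in the C1qc window. Of 32851 mouse promoter windows of the same length, 23.3% held GAGGAA and 16.1% held TGCTGA on either strand. These matches are descriptions of letters and not of bound sites.

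Cells were assigned to classes by gate genes that are no complement genes, and each class was then checked on markers outside the gate. Microglia, gated on P2ry12 and Tmem119, numbered 4481 of 7573 kept cells in the knockout library and 4972 of 5577 in the wild-type library, with medians of 5581 and 7212.5 UMIs per cell. Border macrophages of meninges and vessels, gated on Mrc1 and Pf4, numbered 72 and 24. Monocytes numbered 537 and 54, made up of an Ace gate (327 and 22 cells), for patrolling cells, and a Ly6c2 gate (210 and 32 cells), for classical cells. All 8 microglia markers outside the gate, among them Sall1 and Siglech, were detected in microglia and summed to 21249.9 CPM (UMIs of a gene scaled to 1000000 UMIs of the class) in the knockout library and 19167 CPM in the wild-type library. The 6 border macrophage markers summed to 4071 and 3762 CPM in their gate, and the 6 monocyte markers to 6162 and 8045 CPM in theirs. The knockout Ly6c2 gate also held 9 cells with neutrophil RNA (S100a8, S100a9, Retnlg and Ly6g summed to 10503 CPM there, against 3.33 CPM in the wild-type gate), and the knockout Ace gate held 1 cell with choroid plexus RNA. Cells that met the border macrophage or monocyte gate but held more P2ry12 and Tmem119 than it allows were set aside as mixed, 779 knockout and 142 wild-type cells. Msn stood at 20.5 CPM in knockout and 320 CPM in wild-type microglia. The libraries shared 13 cell barcodes.

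C1q was the dominant complement transcript of both resident classes. In microglia the 3 chains summed to 27663 CPM in the knockout library (27608 to 27718.5, exact 95% Poisson interval) and 18732 CPM in the wild-type library (18697 to 18767). C1qa had 11848 CPM in knockout and 8216 CPM in wild-type microglia, C1qb 8995 and 6075 CPM, and C1qc 6819.9 and 4442 CPM. The order C1qa, C1qb, C1qc held in both libraries. A 3′ count does not grow with transcript length, so these levels can be set against each other as molecules captured. A C1q UMI was found in all but 1 of 4481 knockout microglia and in all 4972 wild-type microglia, but also in 99.0% of knockout lymphoid cells, so the level and not the share of cells sets microglia apart.

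Border macrophages carried C1q at a level near that of microglia. The summed chains stood at 22800.2 CPM in the knockout library (22298 to 23311) and 16199 CPM in the wild-type library (15499 to 16923), which is 82.4% and 86.5% of the microglial level. Microglia markers in the same gate stood at 15.0% and 12.9% of their microglial level, so C1q stood higher there, relative to microglia, than the microglia markers did. C1qa had 9526 CPM in knockout and 6935 CPM in wild-type border macrophages, C1qb 7086 and 5196 CPM, and C1qc 6189 and 4068 CPM.

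Monocytes held little C1q, in the knockout library no more than lymphoid cells, which are not known to make it. The summed chains were 843 CPM in knockout monocytes (812 to 875) and 868 CPM in wild-type monocytes (781 to 961), against 1187 CPM (1101 to 1279) in 103 knockout lymphoid cells. With each cell thinned to 2000 UMIs, 73.2% of knockout monocytes and 80.4% of knockout lymphoid cells had a C1q UMI, while 90.7% of wild-type monocytes had one (98.7%, 99.0% and 100% without thinning, at medians of 5676, 4574 and 7619.5 UMIs). The wild-type library held 1 lymphoid cell and so gave no such comparison of its own. Microglia markers in monocytes stood at 3.29% of their microglial level in the knockout library and 4.49% in the wild-type library, and C1q at 3.05% and 4.63%. The knockout values were at or under the lymphoid level, and the wild-type values have no such measure. Of the lymphoid C1q UMIs, 40.7% lay in 10 of the 103 cells. The monocyte and lymphoid gates both cap P2ry12 plus Tmem119 at 500 CPM, and whether monocyte C1q is background RNA was not tested. C1qb made up 35.8% of C1q UMIs in knockout monocytes (34.0 to 37.6) and 38.6% in wild-type monocytes (33.7 to 43.8). It made up 32.5% in knockout and 32.4% in wild-type microglia. The share in knockout lymphoid cells, 33.0% (29.6 to 36.7), overlapped that of knockout monocytes. In microglia of 500 to 2000 UMIs, C1qb had 3214 of 9256 C1q UMIs in the knockout and 858 of 2389 in the wild-type library. A chain proportion particular to monocytes is thus not shown.

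**Figure D1:**
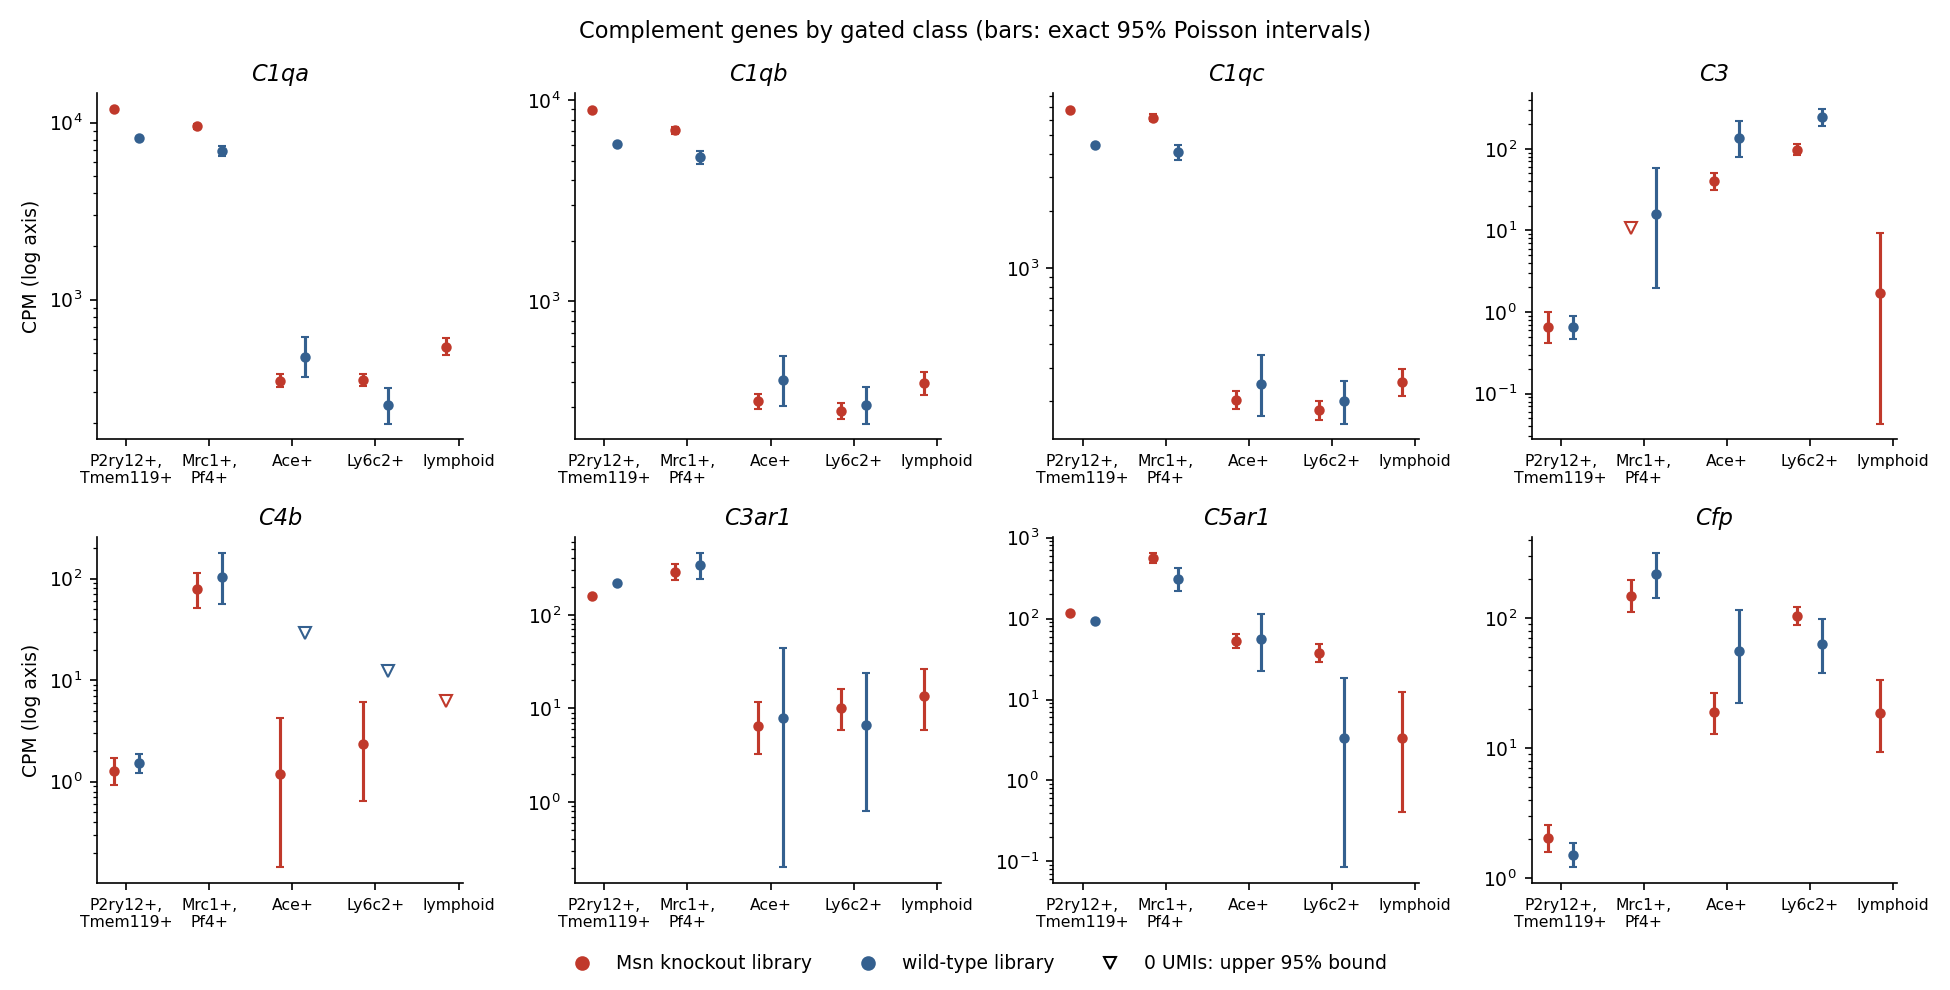
CPM (log axis) of the 8 complement genes in cells gated as microglia (P2ry12, Tmem119), border macrophages (Mrc1, Pf4), Ace monocytes, Ly6c2 monocytes and lymphoid cells, knockout library left of wild-type library, with exact 95% Poisson intervals; open triangles are upper bounds where a class had 0 UMIs, and the 1 wild-type lymphoid cell is not drawn. C1q chains stand between 4068 and 11848 CPM in the resident classes of both libraries, and C3 is highest in Ly6c2 monocytes, at 98.0 CPM in knockout and 243 CPM in wild-type.

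All 3 chains were higher in the knockout library in microglia and in border macrophages by the size rule, which asks for a ratio of at least 1.5-fold relative to the median gene. That median, over 8726 genes at 10 CPM or more in microglia, lay at a log2 ratio of −0.29, knockout over wild-type. In microglia the relative log2 ratio was 0.82 for C1qa (0.82 to 0.83, exact 95% interval for counting error only), 0.86 for C1qb, 0.91 for C1qc and 0.86 for their sum. Of the 8 genes, 5 were at 10 CPM or more in microglia, and 4 of these were higher (the 3 chains and C5ar1), 0 lower and 1 within the rule. Across all 8726 genes 27.4% passed in either direction and 15.0% were higher. On the CPM scale, without the median gene, the log2 ratios were 0.53, 0.57 and 0.62, so that C1qc alone of the 5 passed. On that scale 35.0% of all genes passed in either direction and 4.65% upward.

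The size of the C1q difference was common among abundant genes. Of 143 genes at 1000 CPM or more in microglia, 49.0% were at least 1.5-fold higher in the knockout library, with a median relative log2 ratio of 0.57. C1qa lay above 72% of those genes, C1qb above 73.4% and C1qc above 77.6%. Set against the median of these abundant genes, the log2 ratio of the summed chains was 0.29, under the rule. CPM is a share of captured RNA, so more C1q per cell and less of other RNA cannot be told apart.

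**Figure D2:**
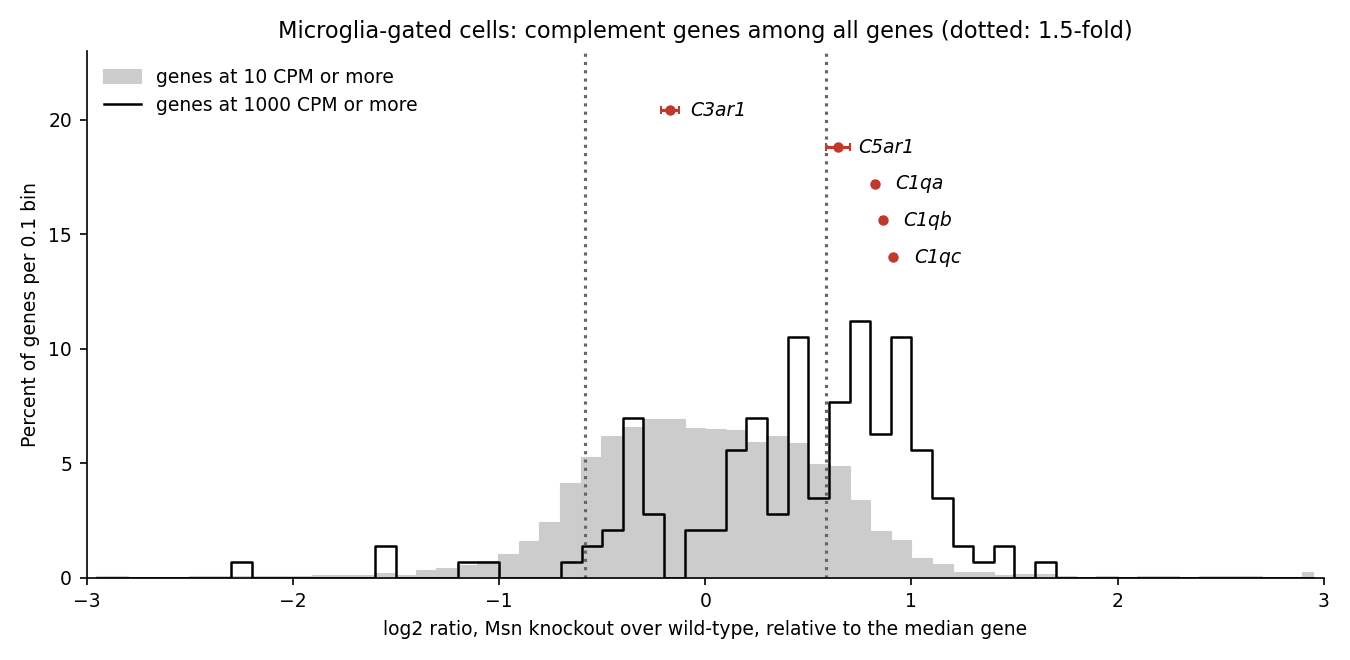
Log2 ratio, knockout over wild-type, relative to the median gene, in microglia: the grey area is the distribution over 8726 genes at 10 CPM or more, the black line that over 143 genes at 1000 CPM or more, both as percent of genes per bin, and the red points are complement genes with exact 95% intervals, at arbitrary heights. The 3 C1q chains lie between 0.82 and 0.91, inside the bulk of the abundant genes, and C3ar1 lies at −0.17.

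The higher C1q of knockout microglia was present in cells of every depth. In 6 bins from 500 to 2000 up to 15000 or more UMIs per cell, the relative log2 ratio of the summed chains was 0.95, 0.97, 0.77, 0.79, 0.83 and 0.89. In cells of 4000 to 6000 UMIs it rested on 27810.4 CPM in 1612 knockout cells and 19586 CPM in 1506 wild-type cells. Per cell, the median was 27601.5 CPM in knockout microglia (5th to 95th percentile 16346 to 38247) and 18719.5 CPM in wild-type microglia (12702 to 26233), so that the libraries overlapped widely cell by cell. Median mitochondrial RNA, at 0.472% of UMIs in knockout and 1.40% in wild-type microglia, and the nuclear RNA Neat1, at 134 and 398 CPM, also differed between these cells, and their part in the C1q difference was not tested.

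**Figure D3:**
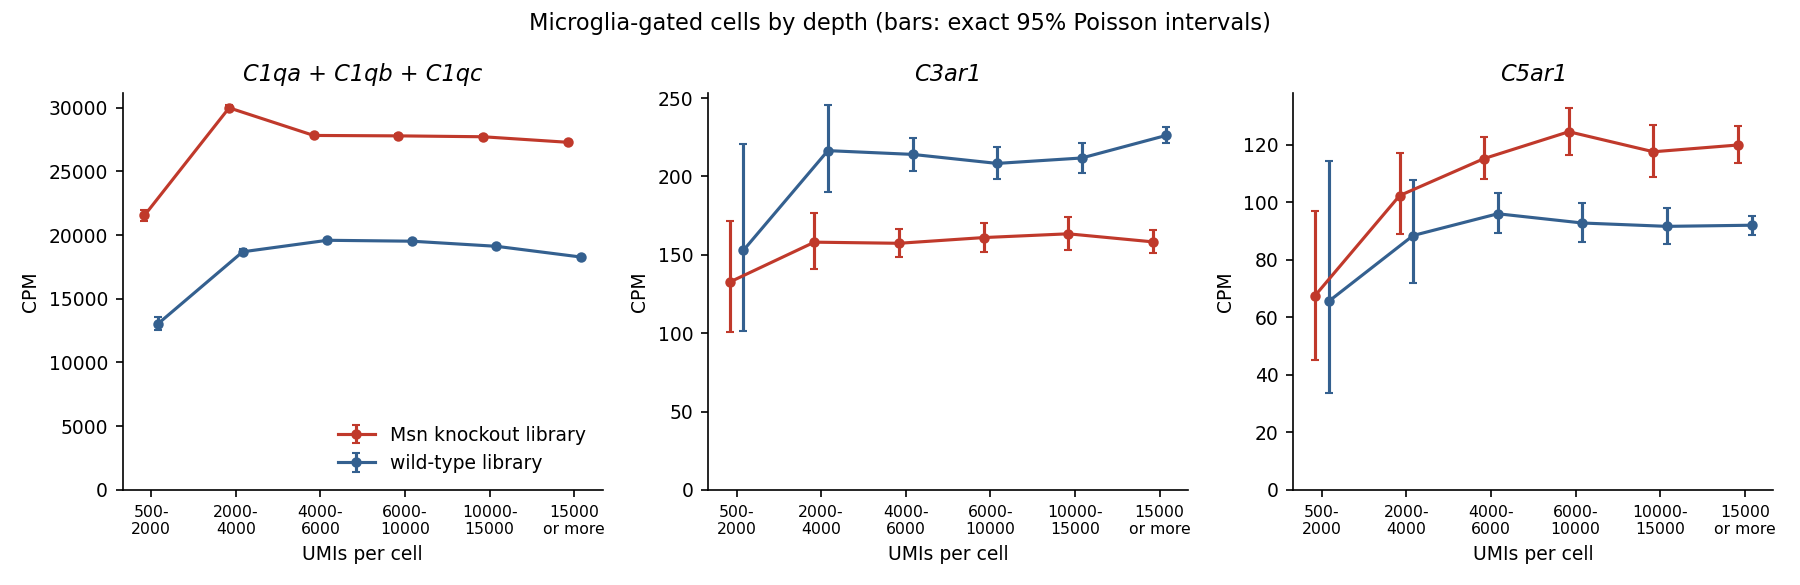
CPM of the summed C1q chains, C3ar1 and C5ar1 in microglia, by the UMIs per cell, with exact 95% Poisson intervals; knockout points are drawn left of wild-type points. C1q is higher in the knockout library in all 6 bins (27275 against 18270.3 CPM in cells of 15000 UMIs or more), and C3ar1 is lower on this scale in all 6.

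In border macrophages the chains had relative log2 ratios of 0.63 for C1qa (0.52 to 0.74), 0.62 for C1qb (0.49 to 0.75) and 0.78 for C1qc (0.64 to 0.92). All 8 genes were measured there, with 4 higher (the chains and C5ar1), 0 lower and 3 within the rule, while C3 had no ratio because the knockout cells had 0 UMIs. These counts stand beside 59.7% of all genes past the rule in either direction and 29.0% higher, since 72 and 24 cells give wide ratios. With gates that allow no P2ry12 or Tmem119 UMI, 22 knockout and 7 wild-type cells remained. The sign of the chains relative to the median gene turned, to −0.44 for C1qa, −0.37 for C1qb and −0.13 for C1qc. The median gene itself lay at 0.44 with these gates, against −0.17 with the main gates. On the CPM scale the summed chains stood at 0.10 with the stricter gates and at 0.49 with the main gates. Then 2 genes were higher (C3ar1 and C5ar1) and 2 lower, C4b at −2.23 and Cfp at −1.09. The share of all genes past the rule was not computed for these gates, so this count is no result about complement genes. Relative to genes at 1000 CPM the chains were under the rule, at 0.27, 0.26 and 0.42. On the CPM scale 2 of the 8 genes passed, C1qc and C5ar1, both higher, as 22.9% of all genes were.

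The proportions of the chains differed little between the libraries. In microglia C1qa, C1qb and C1qc made up 42.8%, 32.5% and 24.7% of C1q UMIs in the knockout library and 43.9%, 32.4% and 23.7% in the wild-type library. The C1qa share was 1.03 percentage points lower in the knockout library (difference −1.03), on 958547 and 1104417 C1q UMIs. The ends of the share intervals of the libraries, set against each other, give a range of −1.22 to −0.84. That range takes UMIs as independent counts. Thinned to 2000 UMIs per cell the difference was −0.63 points, outside that range. In border macrophages C1qa made up 41.8% in the knockout and 42.8% in the wild-type library, with overlapping intervals (40.7 to 42.9 and 40.6 to 45.0). C1qc took a larger share in border macrophages than in microglia in each library, at 27.1% against 24.7% in the knockout library and 25.1% against 23.7% in the wild-type library, of which the wild-type intervals overlap (23.2 to 27.1 and 23.6 to 23.8).

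Among single cells the chain shares spread more than counting alone gives. In microglia with 20 C1q UMIs or more, the C1qa share ran from 36.5% to 48.9% (10th to 90th percentile) in the knockout library and from 37.2% to 50% in the wild-type library. The variance over cells was 1.63 times the binomial one for C1qa in knockout microglia and 1.46 times in wild-type microglia. C1qb gave 1.52 and 1.37, and C1qc 1.37 and 1.29. In microglia of each library this ratio was highest for C1qa and lowest for C1qc. The order was not the same in border macrophages. There C1qa, C1qb and C1qc gave 1.69, 1.41 and 1.68 in 70 knockout cells and 1.55, 1.33 and 1.63 in 23 wild-type cells.

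**Figure D4:**
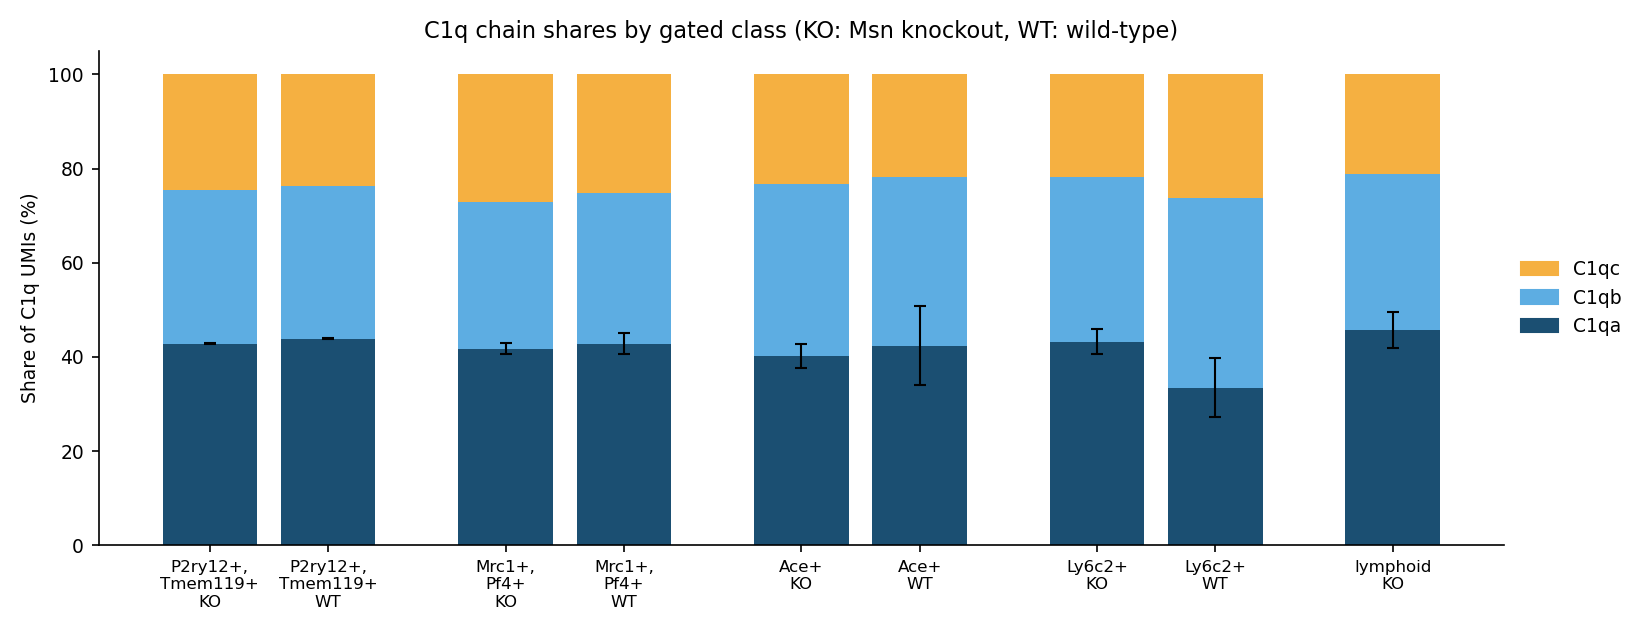
Share of C1q UMIs (%) from C1qa, C1qb and C1qc by gated class, knockout (KO) left of wild-type (WT), with exact 95% binomial intervals on the C1qa share. In every bar but that of wild-type Ly6c2 monocytes, where 228 UMIs gave C1qa 33.3% and C1qb 40.4%, C1qa is the largest share.

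C1q was level across the activation scores of microglia. Cells were ranked in each library by summed interferon genes, by Ccl3 and Ccl4, by disease-associated genes, by MHC class II genes or by heat shock genes, and the top 10% were set against the rest. The summed chains differed between top cells and the rest by 0.962-fold to 1.02-fold over these 5 scores and both libraries. A score is a range and not a cell type, and in the knockout library 46 to 185 cells lay within 10% of the cut.

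Downstream of C1q, C3 and C4b were close to absent from microglia. C3 had 23 UMIs in knockout microglia and 39 in wild-type microglia, which is 0.664 CPM (0.421 to 0.996) and 0.661 CPM (0.470 to 0.904). C4b had 44 UMIs (1.27 CPM) in knockout and 90 (1.53 CPM) in wild-type microglia. Neither gene reached 10 CPM, and no ratio was called. C3 in microglia amounted to 0.962% of its monocyte level in the knockout library and 0.313% in the wild-type library, where the 6 monocyte markers stood at 0.678% and 0.140%. Their part in the C3 of the microglia gate was not tested.

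C3, the protein on which all pathways meet, had its largest share of UMIs in monocytes in each library. Its level there was lower in the knockout library. Of 458 C3 UMIs in kept knockout cells 50.9% lay in monocytes, and of 207 in wild-type cells 43.5%, while mixed cells held 34.5% and 30.4% and microglia 5.02% and 18.8%. Monocytes had 69.0 CPM in the knockout library (60.4 to 78.4, 233 UMIs) and 211 CPM in the wild-type library (169.7 to 259, 90 UMIs). The relative log2 ratio was −1.37 (−1.72 to −1.0), and 4.94% of genes had a lower one. Of 6 complement genes at 10 CPM or more in monocytes, 1 was higher (C5ar1), 1 lower (C3) and 4 within the rule, beside 41.7% of all genes past it in either direction, 19.6% higher and 22.0% lower.

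The lower C3 was seen in both kinds of monocyte. Ly6c2 monocytes had 98.0 CPM in the knockout library (83.6 to 114) and 243 CPM in the wild-type library (190 to 305), a relative log2 ratio of −1.09 (−1.49 to −0.67), where 45.6% of genes passed the rule. Ace monocytes had 40.1 CPM (31.2 to 50.9) and 135 CPM (78.7 to 216), a relative log2 ratio of −1.46 (−2.24 to −0.60), where 56.4% passed. C3 was higher in the Ly6c2 gate than in the Ace gate beyond counting error in the knockout library, while the wild-type intervals overlap. Of 6 members measured in Ace monocytes, 2 were lower (C3 and Cfp) and 0 higher, beside 27.6% of all genes lower. Of 7 in Ly6c2 monocytes, 4 were higher (C1qa, C3ar1 on 17 and 2 UMIs, C5ar1 and Cfp), beside 22.2% of all genes higher. C3 alone was lower. C1qa stood there at 353 CPM in the knockout and 253 CPM in the wild-type library, against 543 CPM in knockout lymphoid cells. Thinned to 2000 UMIs, 10.9% of knockout monocytes (8.42 to 13.9) and 24.1% of wild-type monocytes (13.5 to 37.6) had a C3 UMI, and these intervals just overlap. The wild-type value is from 54 cells, 10 of which held 60.0% of its C3 UMIs. Without the 10 knockout cells with neutrophil or choroid plexus RNA the ratio was −1.41.

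C4b, whose protein continues the classical pathway after C1q, had its highest level per UMI in border macrophages. There it had 78.6 CPM in the knockout library (27 UMIs, 51.8 to 114) and 105 CPM in the wild-type library (13 UMIs, 55.8 to 179), a relative log2 ratio of −0.24 (−1.25 to 0.84). A UMI was found in 15 of 72 knockout and 7 of 24 wild-type cells, and 10 cells held 81.5% of the knockout UMIs. These cells are few and held 10.0% of the C4b UMIs of kept knockout cells and 8.23% of those of wild-type cells, against 57.0% in mixed cells of the knockout library and 57.0% in microglia of the wild-type library. Monocytes had 6 UMIs in the knockout and 0 in the wild-type library, where 0 allows up to 7.03 CPM. C3 was at 0 UMIs in knockout border macrophages, which allows up to 8.74 CPM, and at 2 UMIs in wild-type ones. C4b lies at 34947354 to 34962912 of chromosome 17 with a near-identical copy, C4a, at 35028069 to 35042440, so a split of reads between them is uncertain. Within wild-type microglia, the top 10% of cells by interferon genes had 4.38 CPM of C4b against 1.29 CPM in the rest (3.41-fold, 1.96 to 5.67). In knockout microglia the same split gave 1.66 and 1.23 CPM (1.35-fold, 0.414 to 3.42), and the difference between the libraries was not tested. The rise was not particular to the interferon score. Wild-type C4b was also higher in top cells by heat shock genes (2.45-fold, 1.30 to 4.30) and by MHC class II genes (2.56-fold, 1.55 to 4.12). The chemokine (1.45-fold, 0.669 to 2.81) and disease-associated scores (1.55-fold, 0.811 to 2.77) gave intervals that include 1.

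The receptor genes C3ar1 and C5ar1 were expressed in both resident classes at a level far under C1q. C3ar1, for the C3a receptor, had 159 CPM in knockout microglia (155 to 163) and 219.6 CPM in wild-type microglia (216 to 223). Its relative log2 ratio was −0.17 (−0.22 to −0.12), within the rule, −0.46 on the CPM scale, and −0.74 relative to genes at 1000 CPM, which passes the rule as lower. C5ar1, for the C5a receptor, had 118 CPM in knockout microglia (114 to 121) and 92.4 CPM in wild-type microglia (89.9 to 94.9). Its relative log2 ratio of 0.64 (0.58 to 0.70) passed the rule narrowly and was 0.35 on the CPM scale, 0.56 after thinning and 0.07 relative to genes at 1000 CPM, all under the rule. On the CPM scale C3ar1 was thus lower and C5ar1 higher in knockout microglia, each by less than 1.5-fold.

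Detection at equal depth, which rests on the same UMIs, went in the same directions as the CPM levels. Thinned to 2000 UMIs per cell, 26.4% of knockout microglia (25 to 27.7) and 32.5% of wild-type microglia (31.1 to 33.8) had a C3ar1 UMI. For C5ar1 the shares were 18.8% (17.6 to 20) and 16.5% (15.5 to 17.6), and these intervals just overlap. Without thinning, 43.4% of knockout and 50.2% of wild-type microglia had a C5ar1 UMI, at medians of 5581 and 7212.5 UMIs per cell. In knockout lymphoid cells 0 of 102 had a UMI of either gene after thinning, which allows shares of up to 2.94%.

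Border macrophages had more of both receptors than microglia had in the same library. C5ar1 stood at 562 CPM in knockout border macrophages (486 to 647, 193 UMIs) and 306 CPM in wild-type ones (217 to 420, 38 UMIs). The relative log2 ratio was 1.05 (0.54 to 1.59), and 0.88 on the CPM scale. In the wild-type library 12 of 24 cells had a C5ar1 UMI and 10 of them held 94.7% of the UMIs. C3ar1 stood at 288 CPM (234 to 351) and 338 CPM (244 to 457), a relative log2 ratio of −0.06 (−0.59 to 0.50), so that the libraries did not differ beyond counting error in this gate. With the stricter gates, which left 22 and 7 cells, the relative log2 ratio was 2.82 for C3ar1 and 1.75 for C5ar1. No counting intervals were computed for these gates, so neither value is read as a difference between the libraries.

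C3ar1 had 8.29 CPM in knockout and 7.03 CPM in wild-type monocytes, at or under its level in knockout lymphoid cells (13.5 CPM, 8 UMIs). C5ar1 had 45.6 CPM (154 UMIs) and 18.8 CPM (8 UMIs), a relative log2 ratio of 1.53 (0.51 to 2.76). Ace monocytes had 53.1 CPM in the knockout library and 55.6 CPM in the wild-type library, on 7 wild-type UMIs (0.23, −0.88 to 1.58), an interval that holds the ratio of all monocytes. The difference between the gates was not tested. In the Ly6c2 gate there were 64 UMIs (38.0 CPM) in 210 knockout cells and 1 UMI (3.33 CPM) in 32 wild-type cells, a relative log2 ratio of 3.74 with a counting interval of 1.21 to 9.06. Of those 64 UMIs, 29 came from the 9 cells with neutrophil RNA, and without these cells the knockout level was 21.8 CPM. With the 10 cells left out, the ratio over all monocytes was 1.25 (0.23 to 2.50).

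Within each library both receptor genes were higher in microglia with high chemokine or disease-associated scores, in which C1q was level. The top 10% of microglia by Ccl3 and Ccl4 had 202.5 CPM of C3ar1 in the knockout library, against 154 CPM in the rest, and 285 CPM in the wild-type library, against 214 CPM in the rest. These are 1.31-fold (1.22 to 1.42) and 1.33-fold (1.26 to 1.41). C5ar1 gave 1.47-fold (1.35 to 1.6) in knockout and 1.5-fold (1.38 to 1.63) in wild-type microglia. The disease-associated score gave 1.26-fold for C3ar1 in both libraries, and 1.44-fold and 1.30-fold for C5ar1. The interferon, MHC class II and heat shock scores gave 0.947-fold to 1.10-fold for both genes. Median depths of top cells and the rest were 6005.5 and 5527 UMIs in the knockout library and 6209 and 7457 in the wild-type library for the chemokine score.

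**Figure D5:**
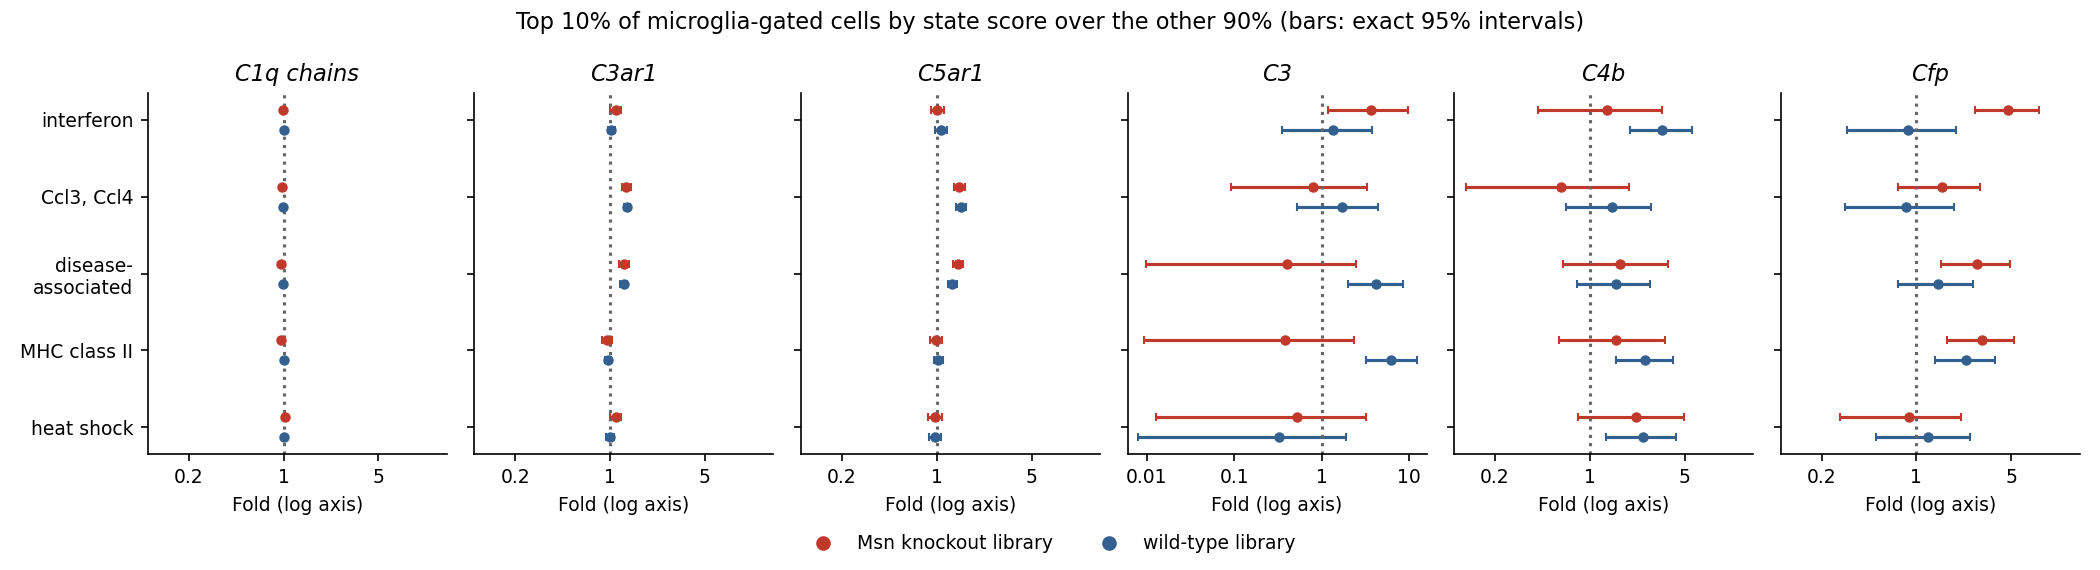
Fold of each complement gene in the top 10% of microglia by a state score over the other 90% (log axis, wider for C3), knockout points above wild-type points, with exact 95% conditional intervals. The summed C1q chains stay between 0.962 and 1.02, and C3ar1 and C5ar1 lie above 1 for the Ccl3 and Ccl4 score and the disease-associated score in both libraries.

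Cfp, the gene of properdin, was highest in border macrophages and in Ly6c2 monocytes. Border macrophages had 149 CPM in the knockout library (51 UMIs, 111 to 195) and 217 CPM in the wild-type library (27 UMIs, 143 to 316), a relative log2 ratio of −0.38 (−1.08 to 0.35). Ly6c2 monocytes had 104 CPM (89.1 to 121) and 63.2 CPM (38.0 to 98.7), a relative log2 ratio of 0.94 (0.25 to 1.71). Ace monocytes had 18.9 CPM (12.9 to 26.7) and 55.6 CPM (22.4 to 115, 7 UMIs), a relative log2 ratio of −1.27 (−2.47 to 0.16). Over all monocytes the levels were 61.3 and 61.0 CPM. Knockout Ly6c2 monocytes had more Cfp than knockout Ace monocytes beyond counting error, while the wild-type intervals of the same gates overlap. Knockout lymphoid cells had 18.6 CPM, from 11 UMIs in 2 of 103 cells (1.94%), while 30 of 327 knockout Ace monocytes (9.17%) had a Cfp UMI.

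Microglia had 71 Cfp UMIs in the knockout library (2.05 CPM) and 89 in the wild-type library (1.51 CPM), under 10 CPM in both. Cells in the top 10% by MHC class II RNA had a higher Cfp level, by 3.04-fold in knockout microglia (1.70 to 5.22) and 2.32-fold in wild-type microglia (1.38 to 3.78), while most Cfp UMIs, 52 of 71 and 66 of 89, lay in the other cells. C3 and C4b gave 0.378-fold (0.00915 to 2.34) and 1.57-fold (0.591 to 3.57) in the knockout library, and 6.33-fold (3.20 to 12.5) and 2.56-fold (1.55 to 4.12) in the wild-type library, where 19 of 39 C3 UMIs lay in those cells. The top MHC class II cells of the wild-type library were deeper, at a median of 11685 against 6770 UMIs in the rest, and in the knockout library 5895 against 5533. The interferon score gave 4.71-fold for Cfp in knockout microglia (2.71 to 7.95, 22 UMIs in the top cells) and 0.862-fold in wild-type microglia (0.308 to 1.96, 6 UMIs), a difference that was not tested. By the disease-associated score Cfp was 2.78-fold in knockout (1.51 to 4.87) and 1.44-fold in wild-type microglia (0.734 to 2.62). C3 was 0.402-fold (0.00973 to 2.49) and 4.21-fold (1.99 to 8.50) by that score, on 1 and 13 UMIs in the top cells.

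Other complement genes were taken from a list of 45, all in the feature table. In microglia 8 of them reached 10 CPM, 6 of them receptors and 2 regulators, and 0 were higher and 0 lower by the rule, beside 15.0% and 12.4% of all genes. Their median relative log2 ratio was −0.22. Itgam and Itgb2, the chains of CR3, had 473 and 591 CPM (−0.03) and 189 and 249 CPM (−0.11), each with the knockout value first. C5ar2, the second receptor for C5a, had 35.6 CPM in knockout and 54.9 CPM in wild-type microglia (−0.33). On the CPM scale 4 of the 8 were lower, C5ar2, Calr and Lrp1 among them, beside 30.3% of all genes. None of 12 initiation genes and none of 9 alternative or terminal genes, such as C2 or Cfb, reached 10 CPM in microglia.

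Border macrophages measured 12 of the 45, of which 1 was higher and 5 lower, beside 29.0% and 30.8% of all genes. The higher one was Fcna, a ficolin of the lectin pathway, with 163 CPM in the knockout library (56 UMIs) and 48.3 CPM in the wild-type library (6 UMIs), at 1.93 (0.72 to 3.43). Among the lower ones were the convertase inhibitor Cd55 (29.1 against 225.5 CPM, −2.78), Cd93 (−1.60), Calr (−0.91) and Lrp1 (−1.18). C2, which joins C4 in the classical C3 convertase, had 125 CPM in knockout and 129 CPM in wild-type border macrophages. Monocytes measured 9 of the 45, of which Cr1l and C1qbp were higher (0.64 and 0.69) and 4 lower, among them Itgam, Cd93 and Calr (−0.60, −1.87 and −0.59), beside 19.6% of all genes higher and 22.0% lower. Neither Cr1l nor C1qbp passed on the CPM scale.

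The genes whose levels went most with C1q were sought over 8 points, 4 classes in 2 libraries, which share library and depth. Among 2881 genes at 100 CPM or more in 1 point, the 6 with the highest Pearson correlation of log2(CPM + 1) were Fcrls, Grap, Pmp22, Hmgn1, Snx5 and Ltc4s, at 0.99 to 1.00. Fcrls, also a marker used to check the microglia gate, had 1560 CPM in knockout and 1393 CPM in wild-type microglia, and 1273 and 918 CPM in border macrophages. In Ly6c2 monocytes it had 52.9 and 29.9 CPM. The resident classes were high and the monocytes low for each of the 6.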

How the data were processed

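Single-cell RNA sequencing covered 1 Msn knockout and 1 wild-type library of CD45+CD11b+ cortical cells. The authors deposited raw UMI counts for each barcode. The counting tool was Cell Ranger, version 7.0.0 per the file headers and 6.0 per the labels' protocols, with the build GRCm39. Seurat and a filter at 500 genes are named in the labels' protocols, but barcodes under 500 genes are in the deposited counts (1463 knockout, 207 wild-type). The knockout library holds 67575835 UMIs over 9038 barcodes and the wild-type library 68576464 over 5842. Each library pools mice, so intervals measure counting error only.

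Barcodes with 500 genes or more and at most 10% mitochondrially encoded UMIs were kept. Microglia had P2ry12 and Tmem119 (1 UMI or more each), no Ace or Ly6c2 UMI and not both Mrc1 and Pf4. Border macrophages had 2 UMIs or more each of Mrc1 and Pf4, and monocytes 2 or more of Ace or Ly6c2, both with at most 500 CPM of P2ry12 plus Tmem119. Monocytes had at most 1 lymphoid UMI, and lymphoid cells 3 or more UMIs of Ncr1, Klrb1c, Nkg7, Cd3e, Cd79a and Ms4a1. Cells between gates (1606 knockout, 384 wild-type) were left unassigned. No doublet caller was run; cells with the genes of 2 gates were set aside as mixed, and leaving out the deepest 6% of cells was an alternative. Counts were summed per class and library and divided by the class total to give CPM. Intervals are 95% and exact (Poisson for levels, Clopper-Pearson for shares, conditional binomial for ratios). The range of the C1qa share difference joins the ends of 2 share intervals and is not an exact interval. In the text a count of 0 was bounded at 3 counts, which is under the exact upper bound. For C3 in knockout border macrophages these are 8.74 and 10.7 CPM. Levels near 1 UMI are given as counts. Genes were called by size at 1.5-fold relative to the median gene at 10 CPM or more. Shares of cells were compared after thinning to 2000 UMIs, which left out 343 knockout and 136 wild-type microglia, 7 and 0 monocytes, and 6 and 2 border macrophages. Scripts used Python 3.11.15, numpy 2.4.6, scipy 1.17.1 and pandas 2.3.3, and the ratio code was tested on simulated data.

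The rule for named genes took the 8 members in every class, other complement genes at 10 CPM or more in a class, and the 6 genes most correlated with C1q. Some genes of the lists are counted but not reported here by name. Besides the markers named with the results, lists for other cells were read in microglia, with the knockout value before the wild-type one. Erythroid markers summed to 417 and 81.1 CPM, NK to 83.1 and 4.85, B to 192 and 185, T to 2.11 and 0.119, neutrophil to 179.7 and 13.96, dendritic to 2.97 and 1.37, astrocyte to 154 and 195, oligodendrocyte to 39.5 and 38.5, endothelial to 1.27 and 1.09, fibroblast to 0.0289 and 1.15, choroid plexus to 14.1 and 1.09 and neuronal to 0.317 and 0.526. The members and lists were chosen with earlier results of these data known.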

Additional observations from a re-analysis of the deposited data

Results flagged for a closer look

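Cfp moved in opposite directions in the 2 monocyte gates. Its relative log2 ratio, knockout over wild-type, was 0.94 in Ly6c2 monocytes (104 against 63.2 CPM) and −1.27 in Ace monocytes (18.9 against 55.6 CPM), a difference of 2.21 between the gates. With 1 library per genotype the difference was not tested. The wild-type values rest on 19 and 7 UMIs, and the interval of the Ace ratio includes 0 (−2.47 to 0.16).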

How the results depend on the processing

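No paired analysis was possible because each genotype has 1 library and the labels give no replicate numbers. The count of complement genes past 1.5-fold in microglia (4) stood at 1 under CPM scaling and at 1 (C3ar1, lower) against genes at 1000 CPM. In border macrophages (4 higher, 0 lower) it was 2 on the CPM scale, 3 relative to genes at 1000 CPM (1 higher, 2 lower) and 3 with cells counted equally. The border macrophage count was 4 under stricter gates (2 higher, 2 lower). It was 5 without the deepest 6% of cells (4 higher, and Cfp lower at −0.64). In monocytes (2) the count was 5 with gate genes alone, the added ones being C1qa (0.79), C1qb (0.89) and C1qc (0.88). That gate has no cap on P2ry12 plus Tmem119 and no lymphoid limit, and so holds other cells, 954 knockout and 94 wild-type. Apart from the CPM scale, no share of all genes past the rule was computed under these alternatives, so the counts have no such measure beside them. The log2 ratio of summed C1q in microglia (0.86) was 0.83 without the deepest 6% of cells, 0.86 with stricter gates (0.861 against 0.856), 0.80 with gate genes alone, 0.83 thinned, 0.80 with each cell counted equally, 0.56 on the CPM scale, 0.29 relative to genes at 1000 CPM and 0.99 by median-of-ratios or relative to all genes with 1 UMI in each library, which are 1 scaling here. The C1qa share difference (−1.03 points) was −1.37 with gate genes alone and −0.63 thinned; with 1000 genes per cell and at most 5% mitochondrial UMIs these results moved by less than their intervals. Reversed values were those of C1qa (−0.44), C1qb (−0.37) and C1qc (−0.13) in border macrophages under stricter gates, with 22 and 7 cells. They are relative to the median gene, which lay at 0.44 there, while the summed chains were at 0.10 on the CPM scale. The cause of the reversal was not tested. C3 in monocytes stayed lower under the 12 alternatives run, at −1.10 to −1.96. Of 204 values of single genes under alternatives, 139 stayed within their interval, 62 moved past it and 3 reversed. Leaving out the 10 monocytes with neutrophil or Ttr RNA was chosen after seeing the data. Border macrophage and wild-type monocyte values rest on classes of 22 to 72 cells, and differences between mice cannot be seen.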

Other observations

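Border macrophages were split by MHC class II RNA at 1000 CPM per cell, into 8 high and 64 low cells in the knockout library and 8 high and 16 low cells in the wild-type library. Summed C1q was 22166 CPM in high and 22875 CPM in low knockout cells, and 16853 CPM in high and 15776 CPM in low wild-type cells. C5ar1 was 440 CPM in high and 576.5 CPM in low knockout cells, with overlapping intervals, and 82.1 CPM (4 UMIs) in high and 451 CPM (34 UMIs) in low wild-type cells. Cfp had 0 UMIs in the 8 high knockout cells, which allows up to 82.5 CPM, and 14 UMIs (287 CPM) in the 8 high wild-type cells.

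Mixed cells, set aside from the classes, held 57.0% of the C4b UMIs and 38.1% of the Cfp UMIs of the knockout library, and 28.5% and 24.8% of those of the wild-type library. Their median depth was 16932 UMIs in the knockout and 21249 UMIs in the wild-type library.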
